A study of Mus musculus with 9 samples.

Results

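The cells described here are the 137 of 1235 cells that carried the label MG, chosen by their measured RNA of 8 immediate early genes. For every cell the counts per 1000000 reads (CPM) of Fos, Fosb, Jun, Junb, Egr1, Ier2, Nr4a1 and Atf3 were added. Within each of 4 sorting plates the cells were ranked by this sum, and the highest-ranked cells, 1 in 3 of the plate, were compared with the same number of lowest-ranked cells. This gave 44 top, 49 middle and 44 bottom cells. The source was brain of adult mice, broken up mechanically and with enzymes. Vascular fragments were taken from it, digested to single cells and sorted into 384-well plates for Smart-seq2, a full-length method in which PCR copies of a molecule are not marked. Strain, genotype, sex, age and any treatment are not given in the sources used here, nor is the number of animals behind the cells. All MG cells are therefore 1 sample. Cells and plates are not replicates, no p-value can be had, and what follows are values, counts and differences in size.

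Immediate early genes are transcribed within minutes of a stimulus, without new protein synthesis. Many encode transcription factors, such as the AP-1 proteins of the Fos and Jun families, and others encode proteins that shut the response down. Microglia are the resident macrophages of the brain, and they are known to switch these genes on during enzymatic dissociation as well as on encounter with injury or microbial products. NF-kB, the other rapid transcription factor of macrophages, is held in the cytoplasm by IkB proteins and drives cytokine genes together with new copies of its own inhibitors.

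The label fitted the marker genes of microglia in most of these cells. The 8 microglia markers, among them Cx3cr1, P2ry12, Tmem119, Csf1r, Siglech, Fcrls and Aif1, summed to a median of 29492 CPM per MG cell, against 228 CPM in the pooled reads of the cells labelled capilEC, whose 8 endothelial markers summed to 15452 CPM. In 12 MG cells the sum was under 50% of that median. Another 12 MG cells held the microglia markers at or above that level and endothelial, mural or fibroblast markers at over 10% of the level in cells of those classes. These 24 cells, 3 of the top, 12 of the middle and 9 of the bottom, are called the cells apart, and results that rest on them are given with and without them. For values without them the 113 cells left were ranked and divided again within each plate, with 37 cells in the top and 37 in the bottom. Such values therefore differ from the others in the cells left out and in the grouping of the rest. Over all plates the groups were alike in depth, with a median of 233682 reads per top cell, 226336 per middle cell and 230960 per bottom cell. Within each plate the median was higher in top cells. It was 195979 against 150522 on s169s and 250004 against 242946 on s480s. On s482s it was 302309 against 262211, and on s483s 322659 against 247662. The part of depth was not tested. Mitochondrial genes, a sign of RNA quality, summed to a median of 6766 CPM in top and 6699 CPM in bottom cells.

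The rule itself set the difference in the 8 ranking genes, so their values are a description. The sum ran from 18367 to 37658 CPM in top cells, with a median of 24769, and from 155 to 17302 CPM in bottom cells, with a median of 8798. On the 3 larger plates levels formed a slope rather than steps where the groups were divided. On plate s480s the last top cell held 23483 CPM and the next cell 23223 CPM, while the first bottom cell held 17302 CPM and the cell above it 17461 CPM. The same neighbours differed by 18367 and 17558 CPM, and by 10037 and 11289 CPM, on plate s169s. Plate s482s had 19787 beside 19666 CPM and 13172 beside 13194 CPM. Plate s483s, with 10 MG cells, had 19578 beside 17389.5 CPM and 14288 beside 15393 CPM. Only 14 cells lay under 5000 CPM, 8 of them on plate s169s, 3 on s480s, 3 on s482s and 0 on s483s. A bottom cell was more often a cell with a moderate level than one without these RNAs.

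**Figure D1:**
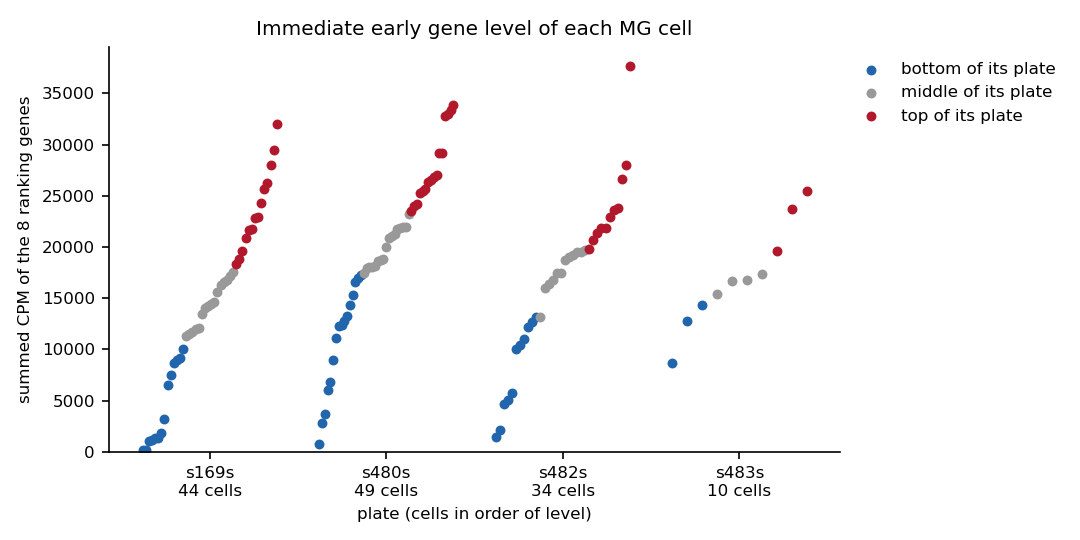
Summed CPM of the 8 ranking genes (vertical axis) in each MG cell, drawn as 1 point per cell in order of level within its plate (horizontal axis); colour gives the group. The points rise without a large gap at the group borders of the 3 larger plates, and 14 cells lie under 5000 CPM.

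Egr1, a zinc finger transcription factor, was the largest of the 8 in 74 cells, and Fos in 31. Egr1 stood at 6042 CPM in the pooled reads of top cells, 4705 in middle and 2427 in bottom cells. Single top cells ranged from 2585 to 10024 CPM with a median of 6257, and bottom cells from 0 to 6949.6 with a median of 1459. Fos stood at 4951, 3669 and 1667 CPM, with 1690.5 to 9468 CPM in top cells and 7.74 to 6149 CPM in bottom cells. The ranges overlapped for each of these genes, although every top cell exceeded the bottom median of both. The remaining AP-1 genes were Jun at 2972 against 1172 CPM, Junb at 3453 against 1551 CPM and Fosb at 290.4 against 31.5 CPM. Atf3, which encodes a stress-induced repressor of the ATF family, stood at 3558 against 810.4 CPM. Ier2 was at 2459 against 1012 CPM, and Nr4a1, an orphan nuclear receptor, at 1408 against 444 CPM. Jun overlaps the antisense gene Junos, and no source used here states the strand setting of the counting, so their reads cannot be told apart.

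Ranking by 4 of the genes and reading the other 4 gives values that the ranking did not set directly. With cells ranked by Fos, Fosb, Jun and Junb, the sum of Egr1, Ier2, Nr4a1 and Atf3 was 11744 CPM in the top and 6025 CPM in the bottom cells. In the reverse direction the sum of the AP-1 genes was 10267 CPM in the top and 5608 CPM in the bottom cells. The log2 difference of Atf3 under the first ranking was 1.66, of Egr1 0.95 and of Ier2 0.74, while Nr4a1 differed by 0.23. The 2 rankings chose 23 cells in common at the top, or 52.3% of each top group.

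Promoters of 6 genes from both groups of responders show the short sequences by which these genes are usually discussed. They are the ranking genes Fos and Nr4a1, the feedback genes Dusp1 and Btg2, and the NF-kB targets Nfkbia and Tnfaip3, picked after their values were seen. Each line holds the 250 bases before the annotated start, 5′ to 3′ on the gene's strand, from RefSeq with GRCm38.p6 coordinates. The bases after the start matched the opening part of 0 Btg2 transcripts, against 1 to 3 transcripts for each other gene. The Btg2 start is thus less certain. Tnfaip3 had 2 listed starts, of which 1 is shown. Capitals mark the cAMP response element TGACGTCA and its 5-base half-site TGACG or, on the other strand, CGTCA, the AP-1 site TGACTCA or TGAGTCA, and the kappaB consensus, all searched on both strands. The half-site lies within the full element, so a full element is also counted as a half-site.
Fos promoter, chr12:85473640-85473889, plus strand: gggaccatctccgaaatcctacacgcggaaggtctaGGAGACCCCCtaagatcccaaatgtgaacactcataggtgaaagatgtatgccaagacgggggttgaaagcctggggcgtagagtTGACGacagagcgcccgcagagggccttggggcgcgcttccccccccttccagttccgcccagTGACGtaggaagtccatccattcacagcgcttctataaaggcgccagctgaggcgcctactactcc
Nr4a1 promoter, chr15:101266596-101266845, plus strand: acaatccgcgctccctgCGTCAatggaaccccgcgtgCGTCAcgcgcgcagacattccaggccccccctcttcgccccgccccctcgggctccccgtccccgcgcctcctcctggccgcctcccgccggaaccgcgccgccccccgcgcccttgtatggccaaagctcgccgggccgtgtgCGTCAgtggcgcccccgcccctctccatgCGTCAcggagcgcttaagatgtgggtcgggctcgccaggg
Dusp1 promoter, chr17:26508473-26508722, minus strand: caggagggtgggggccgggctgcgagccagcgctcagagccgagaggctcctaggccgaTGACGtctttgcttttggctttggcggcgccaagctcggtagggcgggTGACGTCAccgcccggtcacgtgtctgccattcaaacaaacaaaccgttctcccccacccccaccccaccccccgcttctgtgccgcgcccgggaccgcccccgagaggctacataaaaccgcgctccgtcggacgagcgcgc
Btg2 promoter, chr1:134079156-134079405, minus strand: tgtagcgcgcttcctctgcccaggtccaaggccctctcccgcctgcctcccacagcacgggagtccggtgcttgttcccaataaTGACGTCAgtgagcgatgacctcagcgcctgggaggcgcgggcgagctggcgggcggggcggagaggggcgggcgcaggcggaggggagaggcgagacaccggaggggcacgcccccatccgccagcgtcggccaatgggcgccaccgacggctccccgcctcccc
Nfkbia promoter, chr12:55492648-55492897, minus strand: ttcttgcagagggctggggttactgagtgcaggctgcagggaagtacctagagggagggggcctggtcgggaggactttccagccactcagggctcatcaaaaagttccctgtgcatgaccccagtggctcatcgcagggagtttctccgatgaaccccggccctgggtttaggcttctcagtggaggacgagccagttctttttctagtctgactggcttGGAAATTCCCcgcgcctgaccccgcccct
Tnfaip3 promoter, chr10:19015411-19015660, minus strand: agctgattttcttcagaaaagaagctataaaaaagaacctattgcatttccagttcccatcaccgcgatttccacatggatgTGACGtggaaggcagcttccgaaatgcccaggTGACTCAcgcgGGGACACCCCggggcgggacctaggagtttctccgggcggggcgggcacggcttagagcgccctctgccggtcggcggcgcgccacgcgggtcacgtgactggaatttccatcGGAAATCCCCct

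Fos held 2 half-sites and 1 kappaB match, Nr4a1 held 4 half-sites, and Dusp1 and Btg2 each held a full element. Nfkbia held 1 kappaB match, and Tnfaip3 held 2 besides 1 half-site and 1 AP-1 site. The half-site occurred in this window in 5347 of 27025 genes (19.8%), and in 20 of 37 listed immediate early genes outside the ranking (54.1%). The full element occurred in 1.77% of all genes and in 5 of those 37 (13.5%). A kappaB match was found in 8.23% of all genes and in 7 of 15 genes of the NF-kB list (46.7%). The half-site was also in 6 of those 15 (40.0%), in 37 of 94 genes higher in top cells (39.4%) and in 44 of 157 higher in bottom cells (28.0%). The kappaB match was in 11.7% of the 94 and 8.28% of the 157. All these counts cover only genes with a promoter sequence in the set used. The 94 and 157 are the named genes with such a sequence among the 131 and 211 described below. They were not chosen by agreement between plates. The AP-1 site was present in 5.16% of all genes and 1 of the 37 immediate early genes. These are matches of letters in a short window. No binding was measured.

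Over all other genes the size of the difference was read on log2(CPM + 5), from reads summed over the cells of a group. A gene met the size rule when its higher group had at least 50 CPM, a read in at least 50% of its cells and a 2-fold difference. Of 11189 genes measured at over 5 CPM in either group, 131 (1.17%) were higher in top cells by this rule and 211 (1.89%) higher in bottom cells. The 11189 include genes that could not meet the rule because they were under 50 CPM or read in too few cells. The direction was the same on each of 3 plates for 94 of the 131 and 126 of the 211; plate s483s, with 3 cells in each group, was too small to be read alone. The median over all measured genes was -0.14, and scaling with TMM factors moved it by 0.16. With that scaling 183 genes were higher in top and 150 in bottom cells, which takes the share of calls in the top from 38.3% to 55.0%. Without the cells apart, 147 (1.4%) and 140 (1.33%) of 10506 genes met the rule, of which 85 and 84 were among the genes called with all cells. The size rule is no test. Gene lists are described first; plates are given in the order s169s, s480s and s482s where they are not named.

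Other immediate early genes were higher in the cells with high Fos and Egr1. Of 39 measured, 7 met the size rule in the top cells and 0 in the bottom cells, and 33 had a positive difference. The list median was 0.93, against -0.14 for all genes, and lay between 0.83 and 0.97 on the 3 plates. Without the cells apart it was 1.03, with 9 members higher in top cells and 1 higher in bottom cells. In single cells the list summed to a median of 29845 CPM in top and 14985 CPM in bottom cells. All 44 top cells exceeded the bottom median, and 1 of 44 bottom cells exceeded the top median.

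Negative regulators of signalling and of mRNA were among the most abundant of them. Dusp1, a phosphatase that inactivates MAP kinases, stood at 3983 CPM in top, 3118 in middle and 1458 in bottom cells, a log2 difference of 1.45. Its median cell was at 3617 CPM in the top and 922 CPM in the bottom, with ranges of 19.5 to 8846 and 6.24 to 5417 CPM. The groups overlapped, but 43 of 44 top cells were above the bottom median. Btg2, an antiproliferative protein that promotes mRNA deadenylation, stood at 3107, 2765 and 1152 CPM, a difference of 1.43. Top cells held between 414 and 7465 CPM of Btg2, with a median of 2985, and bottom cells between 0 and 5301 CPM, with a median of 630.2. Socs3, the feedback inhibitor of cytokine receptors, was at 854, 579 and 186 CPM, a difference of 2.17. It was patchy, with a median of 137 CPM and a highest value of 3084 CPM in top cells, and a median of 0 in bottom cells. After thinning each cell to 100000 reads, 56.8% of top and 31.8% of bottom cells had a Socs3 read, against 16.1% of capilEC cells, whose median depth was 192941 reads before thinning. Without the cells apart the Socs3 difference was 1.19.

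The transcription factors Klf6 and Jund differed by 1.46 and 1.31, and the survival gene Ier3 by 1.21, or 0.79 without the cells apart. Klf2 differed by 1.27 over all plates, but by 3.70 on plate s169s, 3.30 on s480s and -0.11 on s482s. Zfp36, which encodes the mRNA-destabilising protein tristetraprolin and was the most abundant gene of the list, missed the size rule narrowly at 5146 against 2591 CPM, a difference of 0.99. Its single cells nevertheless followed the ranking. Top cells ranged from 2645 to 9367 CPM with a median of 5528, bottom cells from 24.9 to 7215 with a median of 2589, and 44 of 44 top cells exceeded that bottom median. Not every rapid-response gene behaved so. Egr3 and Nr4a3 were under 5 CPM in both groups, and Nr4a2 stood at 4.09 CPM in top and 28.2 CPM in bottom cells. Fosl2 was lower in top cells, 28.8 against 159.9 CPM, but at 1.56 in the opposite direction without the cells apart.

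**Figure D2:**
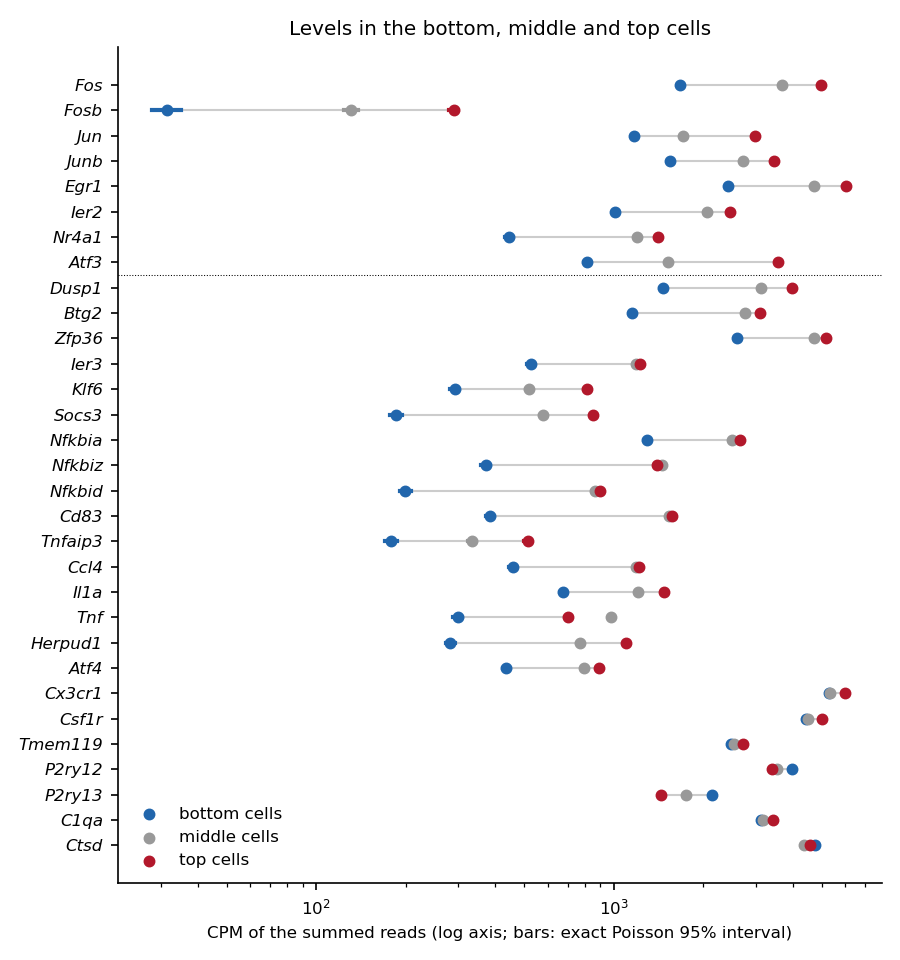
CPM in the reads summed over bottom, middle and top MG cells (horizontal log axis; bars are exact Poisson 95% intervals, which cover counting error only) for the 8 ranking genes above the dotted line and 23 other genes below it. Genes from Dusp1 to Atf4 sit higher in top cells, Dusp1 at 3983 against 1458 CPM, while Cx3cr1 to Ctsd lie close together, apart from P2ry13 at 1444 against 2140.3 CPM.

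Inhibitors and targets of NF-kB were also higher in top cells. Of 18 measured members 6 met the size rule in the top cells and 0 in the bottom cells. The median difference was 1.12, with 0.57 on plate s480s, 1.62 on s482s and 1.65 on s169s, and 0.96 without the cells apart. Without those cells 4 of 17 members met the rule, and Nfkbia at 0.91 and Bcl2a1b at 0.96 did not. Single top cells held a median of 9206 CPM of the list, between 630.4 and 19709.7, and bottom cells a median of 2847 CPM, between 107 and 12999. A top cell exceeded the bottom median in 40 of 44 cases, and 1 of 44 bottom cells exceeded the top median. Middle cells, with a pooled 8409 CPM, were close to the 9225 CPM of top cells and far from the 3903 CPM of bottom cells.

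Nfkbia, which encodes IkBalpha, was the most abundant of the list, at 2651 CPM in top, 2500.2 in middle and 1289.7 in bottom cells, a difference of 1.04. Top cells ran from 216 to 5652 CPM with a median of 2704, and bottom cells from 4.58 to 4180.4 with a median of 823, so that the groups overlapped. The nuclear IkB genes differed more. Nfkbiz stood at 1397, 1448 and 371 CPM, a difference of 1.90, and was positive on each plate at 2.31, 1.38 and 4.63. The median top cell held 1326 CPM of Nfkbiz and the median bottom cell 4.77 CPM. Nfkbid stood at 900.7, 862 and 199 CPM, a difference of 2.15. Cd83, a surface protein of activated antigen-presenting cells, stood at 1567, 1529 and 385 CPM, a difference of 2.01, with 2.13, 1.97 and 2.04 on the 3 plates. Its median was 1343 CPM in top and 19.8 CPM in bottom cells. Tnfaip3, the ubiquitin-editing enzyme A20, was at 514 against 179 CPM. Its difference of 1.496 ranged from 0.64 on s480s to 6.997 on s169s. Bcl2a1b, an anti-apoptotic relative of Bcl2 with near-identical paralogs among which reads can be divided, differed by 1.20. For Nfkbid and Cd83 the middle cells held nearly as much as the top cells, and for Nfkbiz slightly more.

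The subunits of NF-kB itself did not meet the rule. Rel stood at 226 against 318 CPM, with differences of 1.51, -1.65 and 1.97 on the 3 plates, and Nfkb1 at 148 against 115 CPM. Nfkb2 stood at 82.8 against 0.66 CPM but had a median of 0 in both groups and its highest cell at 1568 CPM.

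**Figure D3:**
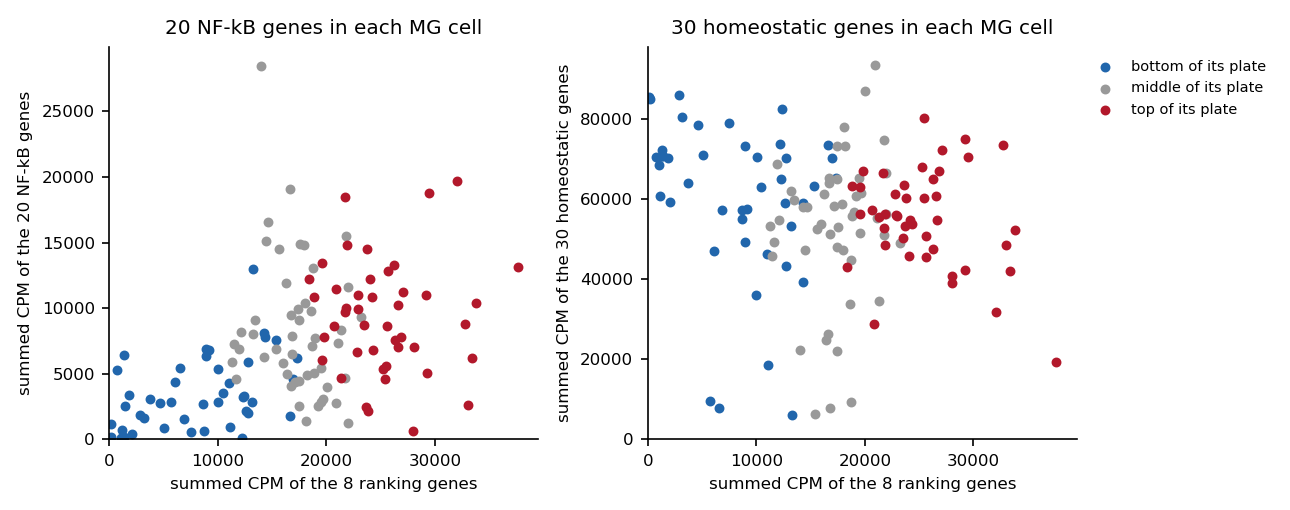
Summed CPM of the NF-kB list (left, 20 genes) and of the homeostatic list (right, 30 genes) on the vertical axes against the summed CPM of the 8 ranking genes, 1 point per MG cell, coloured by group. The left sum has a median of 9206 CPM in top and 2847 CPM in bottom cells, and the right sum 55569 and 64512.5 CPM.

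Cytokine and chemokine genes differed on 2 plates more than on the other. Of 23 measured, 3 met the size rule in top cells and 0 in bottom cells, with a median of 0.69 over all plates, 1.03 on s169s, 0.77 on s482s and -0.01 on s480s. Without the cells apart the median was 0.38, with 5 members higher in top cells. Single top cells held a median of 5748 CPM of the list and bottom cells 2443 CPM, and 41 of 44 top cells exceeded that bottom median. On plate s480s the pooled sum was 4747 CPM in top and 4984 CPM in bottom cells. Il1a, the alarm cytokine interleukin 1 alpha, stood at 1469.8 CPM in top, 1209 in middle and 675 in bottom cells. Its difference was 1.12, with 4.67 on s169s, 1.01 on s482s and -0.23 on s480s. Its range was 0 to 7506 CPM in top and 0 to 7401 CPM in bottom cells, with medians of 1004 and 19.4 CPM. Ccl4, a chemokine that attracts lymphocytes and monocytes, was at 1211, 1190.1 and 458 CPM, a difference of 1.39. Tnf was at 699.9 against 299 CPM, a difference of 1.21, and was highest in the middle cells at 979 CPM. Ccl3, the partner of Ccl4, did not meet the rule at 994 against 659 CPM. Ccl2, Il1b and Cxcl10 were read in few cells, with a median of 0 in both groups, and stood at 291, 239 and 239.6 CPM in top and 102, 147 and 35.8 CPM in bottom cells.

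Genes of the stress pathways were mixed. In the list of the unfolded protein and integrated stress responses 2 of 15 members were higher in top cells, with a median of 0.15. They were Herpud1, a membrane protein of endoplasmic reticulum degradation, at 1100.03 against 282 CPM, and Atf4, the transcription factor of the integrated stress response, at 893 against 436 CPM. The list median was 0.06 without the cells apart, and Atf4, at 0.85, no longer met the rule. Herpud1 was positive on each plate at 2.65, 1.64 and 2.10. Of 16 heat shock genes the co-chaperones Dnajb1 and Dnajb4 were higher in top and Dnaja1 in bottom cells. Dnajb1 at 0.77 and Dnajb4 at 0.70 did not meet the rule without the cells apart. The list median was -0.19, and Hspa1a stood at 125 against 79.7 CPM. No member of the oxidative stress list met the rule among 11 measured, nor of the 22 kinases and factors upstream of immediate early genes, with medians of -0.14 (0.02 with TMM scaling) and 0.06. Of the upstream list Crem, a cAMP-responsive regulator, stood at 10.3 against 69.9 CPM and had a read in too few cells to meet the rule.

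The 12 named genes with the largest differences in top cells, same in direction on the 3 plates, were Cab39, Gem, Nampt, Socs3, Nfkbid, Pitpnc1, Pde2a, Cd83, Herpud1, Nfkbiz, Dnajb4 and Mdm2. Gem, a small GTPase that dampens calcium channels, stood at 455 CPM in top, 420.5 in middle and 78.1 in bottom cells, a difference of 2.47. Cab39, a scaffold of the kinase LKB1, differed by 3.46 and stood at 114 against 5.76 CPM. Mdm2, the ubiquitin ligase of p53, stood at 223 against 59.3 CPM. Several were read in a minority of cells thinned to 100000 reads, such as Nampt in 45.5% of top and 47.7% of bottom cells, and in 70.4% of capilEC cells. In such a gene a few cells with many reads set the difference: the highest top cell held 1614 CPM of Nampt and the median top cell 4.75 CPM. Pde2a went from 2.13 to 0.82 and Dnajb4 from 1.87 to 0.70 without the cells apart. The other 10 named genes stayed at a 2-fold difference or more.

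Genes that define resting microglia differed little in the pooled reads. Of 30 homeostatic genes 0 were higher in top cells by the rule and 1, the junction gene Jam2, was higher in bottom cells. The median was -0.01, but 0.16 with TMM scaling and -0.15 without the cells apart. Pooled sums of the list were 54929 and 55574 CPM. Single cells differed more than the pools: the median was 55569 CPM in top and 64512.5 CPM in bottom cells, and 32 of 44 bottom cells exceeded the top median. The median cell was lower in the top on each plate. It was 53202 against 70376 CPM on s169s, 57807 against 64512.5 on s480s, 55946 against 59354 on s482s and 56261 against 59137 on s483s. Cells with low microglia markers numbered 1 in the top and 4 in the bottom, and their part was not tested. The 14 cells with under 5000 CPM of the ranking genes held a median of 70811 CPM of homeostatic genes, against 55946 CPM in the other 123 cells. They also held 7019 against 24647 CPM of the other immediate early genes and 1731 against 6890.5 CPM of the NF-kB list. Their median depth was lower, at 150338 against 238701 reads, and its part in these values was not tested.

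Cx3cr1, the fractalkine receptor, stood at 6004 CPM in top and 5270.6 in bottom cells, Csf1r at 5007 and 4409.99, and Tmem119 at 2711 and 2472. The purinergic and calcium signalling list, with 17 genes measured, had a median of -0.02, or 0.14 with TMM scaling, with 8 positive and 9 negative differences, and the calcium channel Itpr2 met the rule in top cells. Of its receptors P2ry12, the ADP receptor that steers microglial processes, was at 3400.3 in top, 3523 in middle and 3978 CPM in bottom cells, a difference of -0.23. P2ry13, a related receptor, was at 1444, 1743 and 2140.3 CPM, a difference of -0.57, with -0.91, -0.59 and -0.06 on the 3 plates and -0.75 without the cells apart. Neither receptor met the size rule. None of the 25 disease-associated genes measured met the rule in either direction, with a median of -0.23. Among them Trem2 stood at 1785 and 1768 CPM, and Ctsd at 4551 and 4728 CPM. In the complement and phagocytosis list the anaphylatoxin receptors C5ar1 and C3ar1 were higher in top cells, at 423 against 140.1 and 758 against 364 CPM. C1qa was at 3433 and 3123 CPM.

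**Figure D4:**
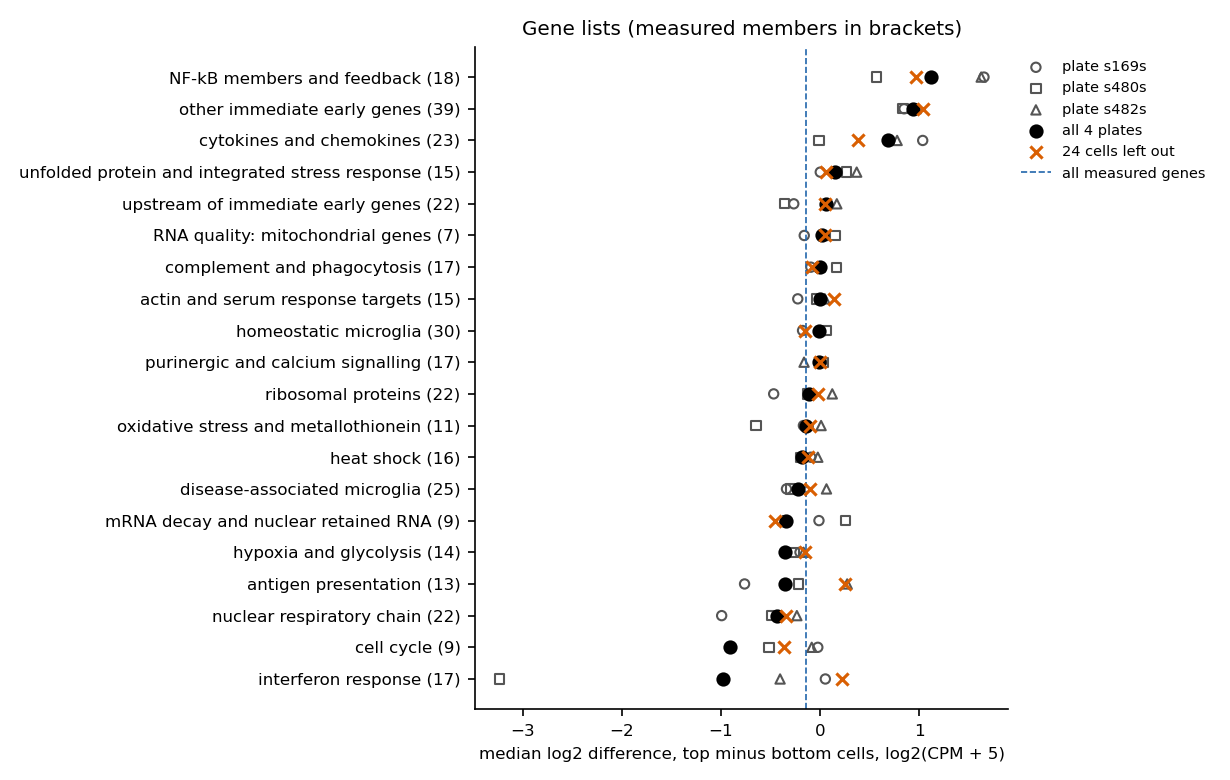
Median log2 difference, top minus bottom cells on log2(CPM + 5) (horizontal axis), of 20 gene lists (rows): filled points use all 4 plates, open symbols 1 plate each, crosses leave out the 24 cells apart, and the dashed line is the median of all measured genes. NF-kB genes (1.12), other immediate early genes (0.93) and cytokines (0.69) lie to the right, and the interferon list spreads from -3.23 to 0.05 between plates.

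Endothelial, border macrophage and monocyte markers were lower in the pooled top cells than in the pooled bottom cells, while mural and astrocyte markers differed little. Endothelial markers summed to 406 CPM in the pooled top cells, 992 in middle and 1082 in bottom cells, and 5 of 8 met the size rule (Pecam1, Cldn5, Flt1, Ly6c1 and Slco1a4). Over all plates together the median cell did not differ so, with 314, 346 and 339 CPM, and the highest bottom cell held 13190.2 CPM. Within plates the median cell held 380 CPM in the top and 560 in the bottom on s169s, and 219 and 587 on s482s. On s483s it held 282 and 1254 CPM, while on s480s it held 301 and 207 CPM. The difference was largest on plate s482s, with a median of the 8 markers of -2.33 against -0.13 on s169s and 0.24 on s480s. On s483s, with 3 cells in each group, that median was -0.62. Border macrophage markers summed to 408 against 869.9 CPM, with 1 bottom cell at 14326 CPM. Their median cell held 459 CPM in the top and 813 in the bottom on s480s, 280 and 662 on s482s, and 50.2 and 1067 on s483s. On s169s the pooled sums were 22.6 and 8.96 CPM. Monocyte and granulocyte markers summed to 76.0 against 409.7 CPM, with 1 bottom cell at 5551 CPM on s480s and 1 at 4247 CPM on s169s. The highest top cell held 2080 CPM of them. Lymphocyte markers were near 0 in both groups, at 0.28 and 0.76 CPM. Mural markers summed to 120.3 and 141 CPM, and astrocyte markers to 199 and 206 CPM. Of the 211 genes higher in bottom cells 143 (67.8%) had a higher CPM in capilEC than in any MG group, against 28 of the 131 higher in top cells (21.4%) and 30.95% of all measured genes.

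**Figure D5:**
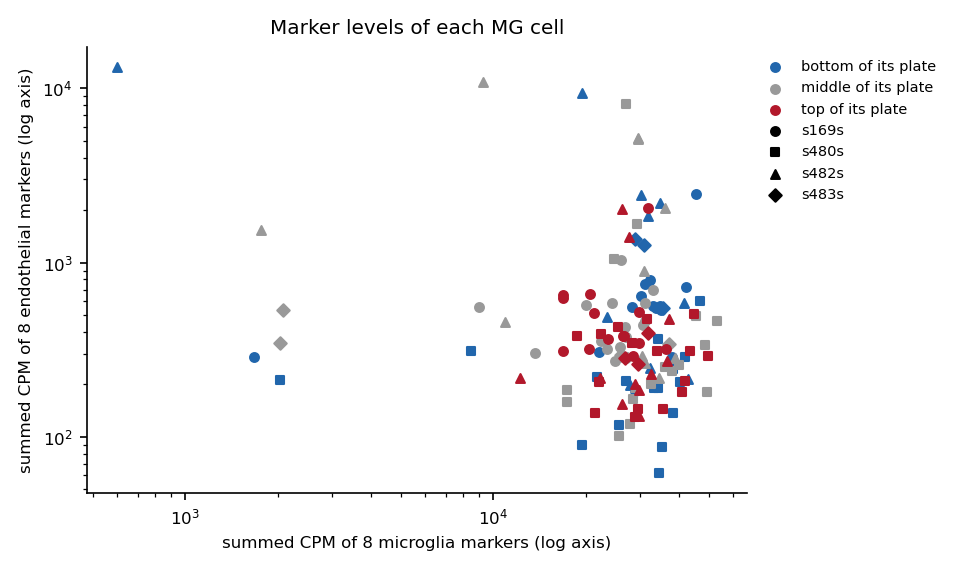
Summed CPM of 8 endothelial markers (vertical log axis) against 8 microglia markers (horizontal log axis), 1 point per MG cell, with colour for the group and symbol for the plate. Most cells hold microglia markers near the median of 29492 CPM, and a few middle and bottom cells hold over 5000 CPM of endothelial markers, the highest 13190.2 CPM.

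The 12 named genes higher in bottom cells were Sorbs3, l7Rn6, Abcc4, Adgre5, Pex2, Uqcrc2, Smpdl3a, Heg1, Id3, H2afv, Ifitm2 and Utrn. Their behaviour without the cells apart divided them. Sorbs3, an adhesion adaptor, moved from -3.04 to -0.05, Id3 from -2.26 to -0.16, Utrn from -2.05 to -0.10 and Smpdl3a from -2.35 to -0.25. Adgre5 moved from -2.72 to 0.10 and Ifitm2 from -2.11 to 0.16. Pex2, a peroxisome biogenesis factor, stayed at -2.50 after -2.55, l7Rn6 at -3.22 after -2.89, Heg1 at -2.07 after -2.28, Uqcrc2 at -1.76 after -2.52, H2afv at -1.60 after -2.16 and Abcc4 at -1.35 after -2.73. Levels in the median cell were low. Pex2 stood at 204 CPM in the pooled bottom cells, with a median cell at 3.42 and the highest at 2033 CPM.

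The nuclear genes of the respiratory chain were lower in top cells by the median of their differences, while the size of the difference varied between plates. Of 22 measured, 0 were higher in top cells and 4 higher in bottom cells, which were Ndufa4 of the terminal oxidase, Uqcrc1 and Uqcrc2 of complex III and Atp5g3 of the ATP synthase. The median was -0.44, against -0.14 for all genes, and was negative on each of the 3 plates, between -0.99 and -0.24. Without the cells apart it was -0.34, with 5 members higher in bottom cells. Uqcrc1 was the most abundant of these, at 143 CPM in top, 227 in middle and 326 in bottom cells. The pooled sum of the list was 2797 CPM in top and 5575 in bottom cells on s169s, and 3633 and 4218 on s480s. It was 3812 and 3820 CPM on s482s, and 3321 and 3471 on s483s. Over all plates the median single cell held 3447 CPM of the list in the top and 3283 CPM in the bottom. On s169s the median cell was lower in the top, at 2826 against 5230 CPM. It was higher in the top on s480s (3526 against 2917), s482s (3924 against 3129) and s483s (3443 against 3267). Ribosomal protein genes had a median of -0.11, or 0.05 with TMM scaling, and 0 of 22 were called.

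The interferon response, antigen presentation and hypoxia lists changed when the cells apart were left out and the rest ranked again. Of 17 interferon genes 0 met the rule. The median was -0.98 over all plates, -3.23 on plate s480s, -0.40 on s482s and 0.05 on s169s. In single cells the sum had a median of 629.95 CPM in top and 336 CPM in bottom cells, the opposite direction, and the highest bottom cell held 10997 CPM. Without the cells apart the median was 0.22. Of 13 antigen presentation genes the proteasome subunit Psmb9 was higher in bottom cells at -1.08, but at -0.69 without those cells it did not meet the rule, and the list median went from -0.36 to 0.25. Hypoxia and glycolysis had 2 of 14 members higher in bottom cells, Slc2a1 and Hk2, with a median of -0.36. Slc2a1, the glucose transporter of the brain endothelium, went from -1.27 to 0.48 without the cells apart and stood at 3573 CPM in capilEC. Hk2, a hexokinase, stayed at -1.57 after -1.38 and was at 0.31 CPM in capilEC.

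The same ranking in capilEC cells gives the size of the pattern in another cell type of the series. These cells held far less of the 8 ranking genes, with 3470.4 CPM in their top and 103 CPM in their bottom cells, 262 cells in each. Of 11416 genes 1 (0.00876%) was higher in their bottom cells and 10 (0.0876%) in their top cells, 3 of which were among the 131 of MG cells. The other immediate early genes had a median of 0.55 there, with 6 of 34 called. The NF-kB list had a median of 0.08 with 0 of 18 called, and the cytokine list -0.07 with 0 of 10. Cd83 differed by 0.01 in capilEC and by 2.01 in MG cells, and Nfkbia by 0.12 and 1.04. Whether these differences between the cell types exceed the spread between animals was not tested. The capilEC groups were larger, with 262 cells against 44, and the part of that was not tested either.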

How the data were processed

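Raw read counts per gene and cell were used as deposited by the authors, with 46517 gene rows and 1235 cells. Per the submitters' processing notes featureCounts, Subread 1.4.6-p5 and SAMtools 1.16.1 were used, and GRCm38 and GRCm39 were named without a role. The aligner and the strand setting are not given in the sources used here. The deposited label gave each cell's type, and the start of its name its plate; 0 columns were left out, and 0 cells had identical counts. MG cells held 101629 to 590307 reads, 32608182 in all. Counts of a group's cells were added, scaled to CPM and compared on log2(CPM + 5). Intervals are exact Poisson for sums, at 95%, and cover counting error only, since Smart-seq2 does not mark PCR copies. A sum of 0 allows up to 3 reads, or 0.28 CPM in the top or bottom cells. Printed percentages of cells with a read were taken after thinning to 100000 reads. The 50% of cells in the size rule was read on the counts before thinning. No doublet caller was run. An alternative dropped cells that held another class's markers and ranked the rest again. Named genes were the first 12 in each direction by log2 difference past the size rule whose direction agreed on every plate with at least 5 cells in each group, leaving out mitochondrial, ribosomal, predicted and clone-named genes. Members of the lists were named where they met the rule or were abundant. 1 gene of the lists is not reported here. The ranking, the lists and their members were chosen with earlier results of these data known. Of 483 list entries 0 were absent from the table and 3 were found under an older symbol. Alternatives covered scaling (edgeR 4.0.16 TMM and DESeq2 1.42.0 size factors, in R 4.3.3), the pseudocount, filters, thresholds, ranking genes, group size, plates and cells left out. Computations used Python 3.11.15, pandas 2.3.3 and scipy 1.17.1 and were tested on simulated data. In such data the size rule also picked genes that had not been changed. The changes set there were larger than the 2-fold of the rule and lay in genes read in most cells. Smaller changes and genes with few reads were not checked in this way.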

Additional observations from a re-analysis of the deposited data

How the results depend on the processing

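No test could be run with 1 sample, so a value is compared with itself under other settings. The 131 genes higher in top and 211 higher in bottom cells became 740 and 957 with no minimum share of cells, 285 and 439 at 1.5-fold, 9 and 36 at 4-fold, 84 and 129 after thinning to 100000 reads, and 61 and 133 when the upper was compared with the lower part of each plate with no middle group. Leaving out 1 plate at a time gave 137 to 241 and 185 to 406 genes, with plate s480s giving 241 and 406. Without either kind of cell apart 140 genes were higher in bottom cells. Of 460 values of the 20 list medians 70 changed sign, in 13 lists. Among lists at least 0.5 from 0, the interferon list alone changed sign, in 5 settings: 0.037 without each gene's cell of largest count, 0.50 without plate s480s (from -1.34 when plate s482s was left out), 0.22 when ranked by Egr1, Ier2, Nr4a1 and Atf3, 0.10 without cells of low microglia markers and 0.22 without either kind. Of 552 values of named genes 3 changed sign, Adgre5 at 0.024 when ranked by Egr1, Ier2, Nr4a1 and Atf3 and at 0.10 without either kind of cell, and Ifitm2 at 0.16 without either kind. The cause was not tested. Leaving out cells of low microglia markers, alone or with cells of another class, was chosen after seeing the data. No paired analysis was possible because the labels give 1 MG sample and no replicate numbers. Reads from a few cells set many gene values, so small pooled differences were not detectable at this number of cells.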

Other observations

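Outside the lists, some abundant genes of macrophage sensing met the size rule in top cells; they were picked here after their values were seen. Cd14, the co-receptor for bacterial lipopolysaccharide, stood at 1397 CPM in top, 890.4 in middle and 529 in bottom cells, a difference of 1.39, and Tlr2, a receptor of bacterial lipoproteins, at 534, 376 and 188 CPM, a difference of 1.48. Both were positive on each of the 3 plates and stayed at 1.45 and 1.68 without the cells apart. They were at 5.32 and 7.74 CPM in capilEC. Tsc22d3, a target of glucocorticoid signalling, stood at 683, 376 (375.5) and 203 CPM, a difference of 1.73, and Plek, a platelet and leukocyte signalling protein, at 861, 517 and 320.2 CPM, a difference of 1.41.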
